A study of Mus musculus with 18 samples.

Results

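The comparison described here sets BRE-GFP positive against BRE-GFP negative cells sorted from fresh, uncultured mouse AGM (aorta-gonad-mesonephros region). It takes 6 of the 18 libraries of the series, chosen by their labels: every library made directly after dissection of the AGM at embryonic day 11. All 6 come from the C57BL6 BRE-GFP reporter strain, so that the negative cells carry the same transgene as the positive ones. Cells were sorted into an endothelial-enriched gate (EC; CD31+, Kit-), a gate enriched for hematopoietic progenitor and stem cells (HPSC; CD31+, Kit+) and a mesenchymal-enriched gate (MC; CD31-, Kit-). Each gate was divided by GFP, which gave 3 pairs with 1 library per fraction. The other 12 libraries hold the same 6 combinations after explant culture with BMP and Hedgehog, without or with cyclopamine, a Hedgehog pathway inhibitor, and serve to compare directions of change and to estimate the spread in the test of each gene. The labels do not say how many embryos were pooled or whether the pairs came from separate sorts. With 1 library per gate and fraction, the 3 gates stand in for replicates. The p-values therefore measure how far the BRE-GFP effect differs between gates of the same culture. That spread may be partly technical and is not a spread between repeated sorts of 1 gate.

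Bone morphogenetic proteins (BMPs) bind paired type I and type II receptor kinases, which phosphorylate SMAD1, SMAD5 and SMAD9. These enter the nucleus with SMAD4 and act on BMP-responsive elements (BRE), such as those of the Id genes, whose products block basic helix-loop-helix transcription factors. In the BRE-GFP reporter such elements drive green fluorescent protein, which marks cells that have responded to BMP. The AGM is where hematopoietic stem cells emerge from arterial endothelium of the dorsal aorta, and BMP signalling there is known for its place in that step. The tissue also holds mesenchyme, nephric and gonadal precursors, sympathetic neural crest, primordial germ cells and circulating blood.

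The 6 libraries held 4547062 to 16142766 counts in genes and 12028 to 17848 detected genes. The BRE-GFP positive MC library stood apart as the shallowest, with the fewest genes detected and the largest share of reads at no annotated feature, 42.0%. Rank correlations of CPM (counts scaled to library size, with TMM factors) between libraries were 0.879 for the EC pair, 0.830 for the HPSC pair and 0.830 for the MC pair. The EC and HPSC libraries of 1 fraction were no less alike than the libraries of 1 gate: the Spearman coefficient was 0.902 between the negative libraries and 0.890 between the positive ones. The Xist transcript, made from the inactive X chromosome of females, and the Y-linked Ddx3y were both present in all 6 libraries, at 69.1 to 150 CPM and 35.4 to 156 CPM, so that transcripts specific to each sex were found in every library.

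The gates were checked on their own markers, with the negative library given first in each pair. Pecam1, which encodes CD31, was counted at 93.7 and 1683 CPM in EC, 212 and 1472 CPM in HPSC, and 6.29 and 3 CPM in MC. Kit, the stem cell factor receptor, stood at 42.6 and 219.9 CPM in EC, 646 and 690.1 CPM in HPSC, and 99.5 and 73.3 CPM in MC. Both HPSC libraries therefore had high Kit, but CD31 transcript was low in the negative EC library beside the positive one. The 20 pan-endothelial genes summed to 830.1 CPM in the negative and 11255 CPM in the positive EC library, whereas 17 macrophage genes summed to 10953 and 1663 CPM. The library labelled EC and BRE-GFP negative was thus low in the genes of the cell type its gate enriches for, and EC is used below as the name of the gate. In bulk libraries such as these, fewer cells of a type and less RNA per cell cannot be told apart.

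Genes were tested with edgeR's quasi-likelihood test on all 18 libraries, which share 1 estimate of spread, with a block for each pair and a separate BRE-GFP effect for fresh tissue; log2 fold changes are positive over negative. At an adjusted p under 0.05, 3 of 16231 genes passed, 0.0185% of those tested. Tie1 and Cd93 rose, 0.0123% of genes tested, and Lyz2 fell, 0.00616%. The median fitted log2 fold change of all genes tested was -0.292, and an unadjusted p under 0.05 was found for 938 genes, or 5.78%. Tie1, an endothelial receptor tyrosine kinase of the angiopoietin system on mm10 chr4:118471191-118490061, was counted at 35.9 and 594 CPM in EC, 14.5 and 401 CPM in HPSC, and 2.65 and 23.4 CPM in MC. Every positive library was above its own negative one, but the MC positive value lay below the EC negative value, so that the fractions overlapped. The mean was 17.7 ± 16.8 CPM (SD, n = 3) in negative and 339 ± 290.02 CPM (SD, n = 3) in positive libraries. Here n counts the 3 gates, with 1 library each. The log2 fold change of Tie1 was 4.0 (SE 0.57; edgeR adjusted p = 0.0306).

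Cd93, a C-type lectin-like receptor of endothelium and early blood cells on chr2:148436640-148443563, was counted at 105 and 1105 CPM in EC, 24.5 and 869 CPM in HPSC, and 10.4 and 91.9 CPM in MC. It was higher in the positive library of every gate, with a log2 fold change of 3.88 (SE 0.53; edgeR adjusted p = 0.03). Lyz2, lysozyme of macrophages and neutrophils on chr10:117277331-117282321, was counted at 619.8 and 61.8 CPM in EC, 199.8 and 22.1 CPM in HPSC, and 17.3 and 0.999 CPM in MC. It fell in every pair, and its log2 fold change was -3.47 (SE 0.40; edgeR adjusted p = 0.00879). When each of the 9 pairs of the series was left out in turn, Lyz2 passed in 7, Cd93 in 5 and Tie1 in 4 of the 9 fits. The adjusted p was highest for all 3 in the edgeR fit without the fresh HPSC pair, at 0.157 for Lyz2, 0.366 for Cd93 and 0.428 for Tie1.

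The genes of next lowest p on each side, among those with the same sign in every fresh pair and a high enough mean CPM, did not pass. On the higher side they were Col4a1, Egfl7, S100a16, Col4a2, Tspan18 and Plagl1, with edgeR adjusted p of 0.0648 to 0.121. Egfl7, a protein secreted by endothelium, was counted at 57.3 and 847 CPM in EC, 69.7 and 565 CPM in HPSC, and 9.43 and 35 CPM in MC. S100a16, a calcium-binding protein, was counted at 32.6 and 395 CPM in EC, 4.36 and 303 CPM in HPSC, and 10.6 and 48.5 CPM in MC. Tspan18, a tetraspanin found in endothelium, was counted at 31.3 and 323 CPM in EC, 9.98 and 281 CPM in HPSC, and 16.6 and 62.7 CPM in MC. That all of them were higher in the positive library of each gate follows from this choice. Their ratios were smallest in MC.

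On the lower side the same choice gave Gm2a, Alox5ap, Pcdh9, Srgn, Ccl4, Laptm5 and Cd53, with edgeR adjusted p of 0.0648 to 0.106. Gm2a, the lysosomal GM2 ganglioside activator, was counted at 455 and 92.1 CPM in EC, 256 and 39.97 CPM in HPSC, and 78.1 and 5.99 CPM in MC. Alox5ap, which leukotriene synthesis requires, was counted at 414 and 59.4 CPM in EC, 288 and 56.8 CPM in HPSC, and 6.54 and 0.2 CPM in MC. The leukocyte tetraspanin Cd53 was counted at 731 and 75.8 CPM in EC, 391 and 75.4 CPM in HPSC, and 12.2 and 0.999 CPM in MC. The leukocyte lysosomal membrane protein Laptm5 was at 1890.3 and 519 CPM in EC, 1624 and 569 CPM in HPSC, and 41.3 and 3.2 CPM in MC. Serglycin (Srgn) and the chemokine Ccl4 were nearly confined to the CD31+ gates, with at most 2.34 CPM of Srgn and 1.91 CPM of Ccl4 in MC. Pcdh9, a protocadherin, differed from the others in that it was most abundant in negative MC cells, at 49 CPM, and was listed at 0 in the positive HPSC and MC libraries.

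**Figure D1:**
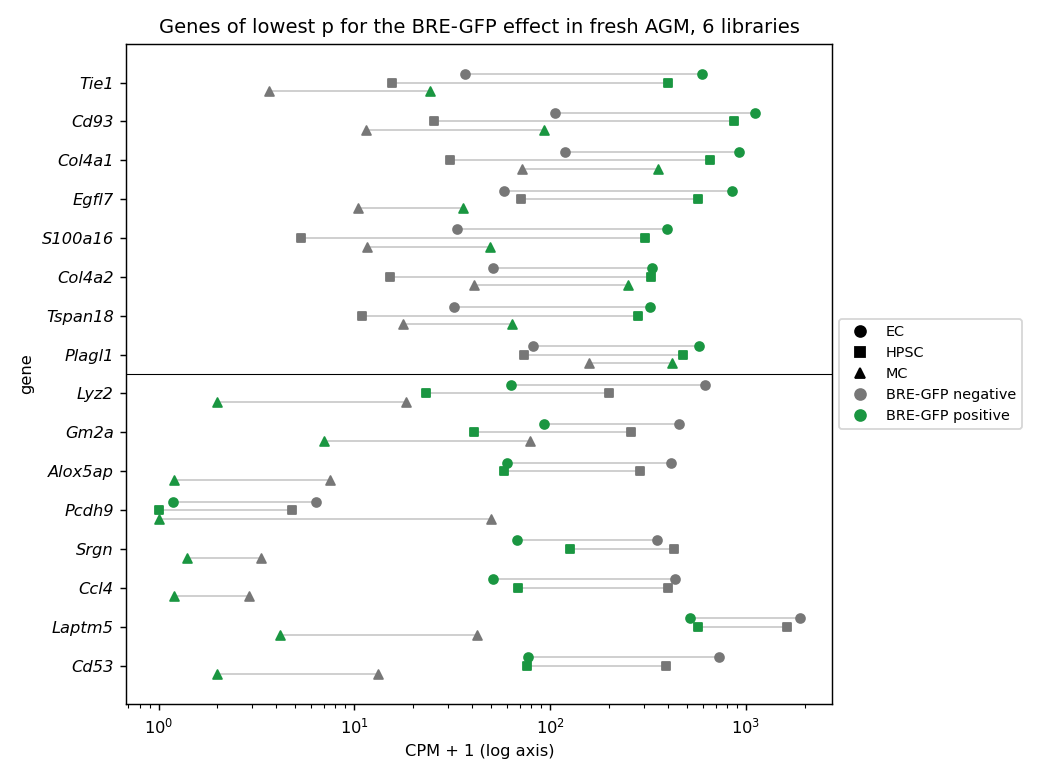
CPM + 1 on a log axis (horizontal) of 16 genes (vertical), with a line joining each pair. Libraries are negative (grey) or positive (green), from the EC (circle), HPSC (square) and MC (triangle) gates. Shown are the 8 higher and the 8 lower genes of lowest p for the fresh BRE-GFP effect. Only genes with the same sign in every fresh pair and a high enough mean CPM were taken, without predicted genes. The 8 genes above the rule lie further right in each positive library and the 8 below it further left, as their choice requires. Tie1, Cd93 and Lyz2 passed the test.

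Upstream sequence is shown for a pair of endothelial genes that were higher and a pair of myeloid genes that were lower in positive cells, since the reporter reads a SMAD-bound element and ETS-family factors are known for binding upstream of both endothelial and myeloid genes. Each window runs 5′ to 3′ on the gene's strand from 250 to 51 bases before the RefSeq start (GRCm38.p6). Kdr lies on the minus strand (chr5:75978506-75978705), Emcn on the plus strand (chr3:137340828-137341027), and Lyz2 (chr10:117282323-117282522) and S100a9 (chr3:90695772-90695971) on the minus strand. Capitals mark the ETS core AGGAAG on either strand.
Kdr: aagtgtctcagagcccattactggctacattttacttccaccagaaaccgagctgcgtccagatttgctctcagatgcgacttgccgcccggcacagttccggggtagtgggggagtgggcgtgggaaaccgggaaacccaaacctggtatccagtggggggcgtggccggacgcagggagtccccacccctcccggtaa
Emcn: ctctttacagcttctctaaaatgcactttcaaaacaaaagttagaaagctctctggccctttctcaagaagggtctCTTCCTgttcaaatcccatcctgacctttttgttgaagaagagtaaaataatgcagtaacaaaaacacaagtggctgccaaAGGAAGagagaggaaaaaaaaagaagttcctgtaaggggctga
Lyz2: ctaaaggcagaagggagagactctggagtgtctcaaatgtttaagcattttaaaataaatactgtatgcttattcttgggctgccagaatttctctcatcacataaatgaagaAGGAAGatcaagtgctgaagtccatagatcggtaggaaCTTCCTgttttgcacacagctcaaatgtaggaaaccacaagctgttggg
S100a9: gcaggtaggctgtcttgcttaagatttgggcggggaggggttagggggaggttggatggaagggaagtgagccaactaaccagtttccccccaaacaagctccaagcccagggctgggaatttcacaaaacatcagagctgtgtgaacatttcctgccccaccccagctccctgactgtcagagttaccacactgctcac
The core was found at 2 places in Emcn and 2 in Lyz2 and at none in Kdr and S100a9. It occurred in 23.9% of 32851 RefSeq promoter windows of the same length. The GC-rich SMAD element GGCGCC, which shares no overlap with the ETS core, occurred in none of these windows and in 7.15% of all. These are letter matches within 200 bases and show no binding.

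Endothelial genes were higher in both positive CD31+ libraries. Every one of the 20 pan-endothelial genes had a higher value in the positive EC and the positive HPSC library, against 7 in MC. Across genes tested, 8.78% were higher in all 3 pairs, and 1.47% were higher at an unadjusted p under 0.05; in the list these were 7 and 11 of 20, and 1, Tie1, passed after adjustment. The list's median log2 ratio of CPM + 5 was 3.39 in the EC pair, 4.13 in the HPSC pair and -0.093 in the MC pair, and its median over the mean of the 3 pairs was 2.37, against -0.08 for all genes tested. Summed CPM was 13.6-fold higher in the positive EC and 16.2-fold higher in the positive HPSC library.

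Receptors of vascular growth factors were among them. Kdr, the main VEGF receptor of endothelium, was counted at 70.6 and 1088 CPM in EC, 17.5 and 1008 CPM in HPSC, and 16.9 and 106 CPM in MC. Tek, the angiopoietin receptor and partner of Tie1, was counted at 32.3 and 837 CPM in EC, 18 and 525 CPM in HPSC, and 7.52 and 0.799 CPM in MC. It therefore parted from Tie1 in the MC pair, where it was low in both libraries. Flt4, the lymphatic VEGF receptor, stood at 25.3 and 326 CPM in the EC pair and 0.969 and 427 CPM in the HPSC pair. Junction and surface genes had the same order: Cdh5, the adherens junction cadherin of endothelium, was counted at 43.3 and 729.7 CPM in EC, 12.5 and 579 CPM in HPSC, and 4.25 and 3.6 CPM in MC. The endothelial sialomucin Emcn was counted at 62.1 and 1234 CPM in EC, 15.5 and 862 CPM in HPSC, and 14 and 42.7 CPM in MC. Robo4, an endothelial guidance receptor, was at 8.65 and 330.2 CPM in the EC pair and was listed at 0 in the negative and at 321 CPM in the positive HPSC library. None of these 6 passed after adjustment (edgeR adjusted p of 0.131 for Emcn, 0.206 for Kdr, 0.458 for Cdh5, 0.586 for Robo4, 0.859 for Flt4 and 0.87 for Tek).

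Arterial and venous genes did not point in opposite directions. Of 16 arterial genes, 9 were higher and 0 lower in all 3 pairs, with 5 higher at an unadjusted p under 0.05 and a median ratio of 1.26. Of 10 venous and lymphatic genes these were 3 and 4, with 1 lower in all 3 pairs and a median of 1.88. Among all genes tested, 8.78% were higher and 16.2% lower in all 3 pairs, and 1.47% were higher at an unadjusted p under 0.05. No gene of either list passed after adjustment. Dll4, the Notch ligand of arterial endothelium, was counted at 8.43 and 103 CPM in EC, 0.0969 and 39.6 CPM in HPSC, and 0.185 and 0.2 CPM in MC. Gja5, an arterial gap junction protein, was counted at 47.1 and 630.5 CPM in EC, 9.69 and 6.46 CPM in HPSC, and 10.1 and 1.4 CPM in MC, so that it was high in positive EC cells and in no other fresh library. Nrp1, a VEGF co-receptor, was counted at 493 and 1250.2 CPM in EC, 304 and 906 CPM in HPSC, and 374 and 759.8 CPM in MC. The Notch1 receptor gene was counted at 73.4 and 386 CPM in EC, 68.5 and 397 CPM in HPSC, and 44.5 and 27.6 CPM in MC. On the venous side Aplnr, the apelin receptor, reached 2765 CPM in positive EC and 2582 CPM in positive HPSC cells, from 90.1 and 41.2 CPM in the negative ones. Nr2f2, which specifies venous fate, was counted at 144 and 322 CPM in EC, 156 and 324 CPM in HPSC, and 431 and 396 CPM in MC.

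**Figure D2:**
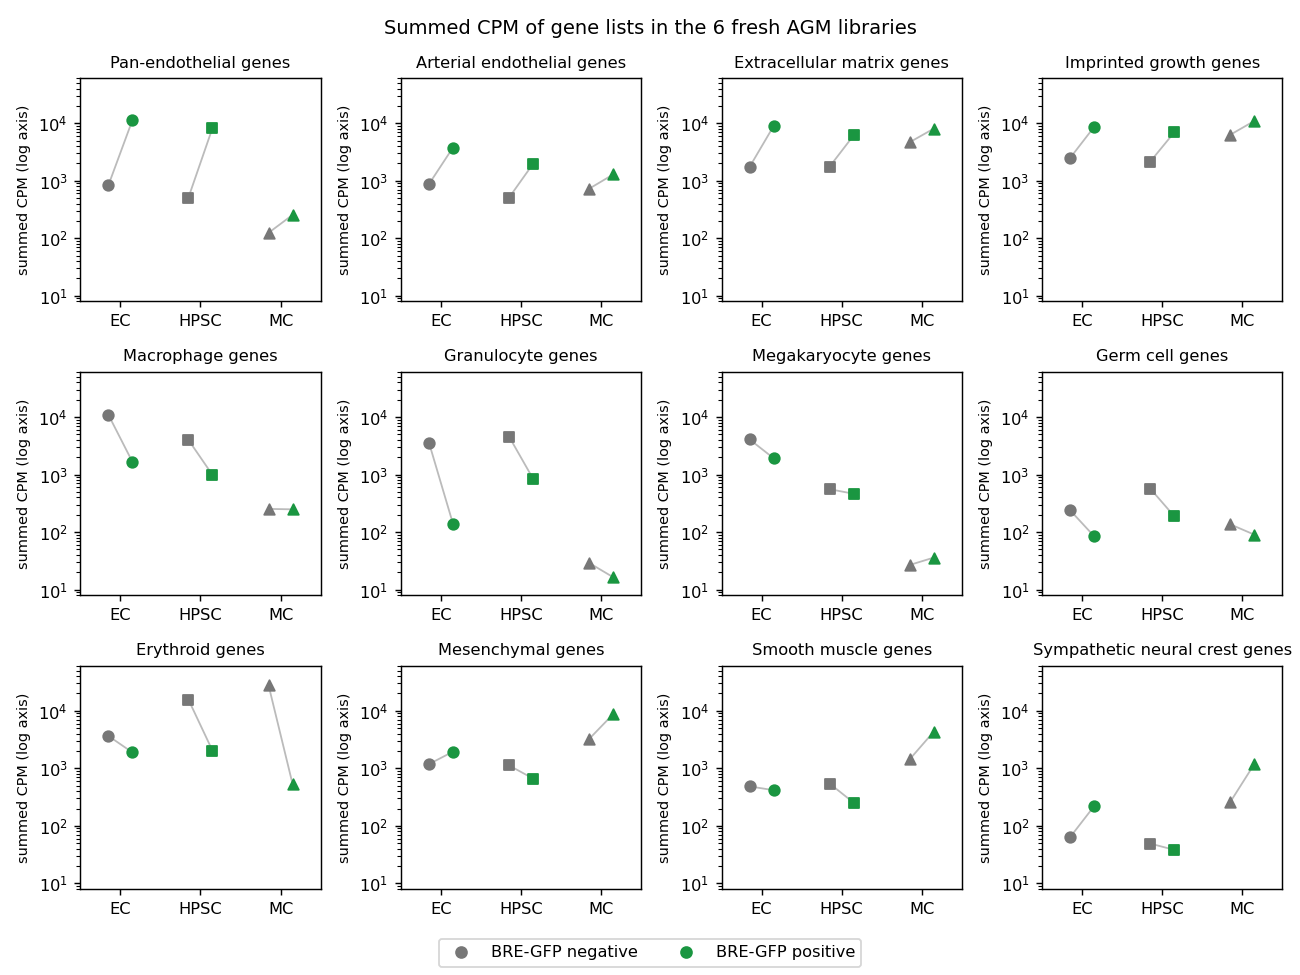
Summed CPM on a log axis (vertical) of 12 gene lists in the negative (grey) and positive (green) library of each gate (horizontal), with a line joining each pair. Endothelial genes are higher in the positive EC and HPSC libraries, macrophage and granulocyte genes lower there, erythroid genes lower in all 3 positive libraries, and mesenchymal, smooth muscle and sympathetic genes higher in positive MC cells.

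Most extracellular matrix genes had higher values in positive cells. Of 16, 13 were higher in EC, 11 in HPSC and 15 in MC. Of the same 16, 10 were higher in all 3 pairs and none lower, beside 8.78% and 16.2% of genes tested. At an unadjusted p under 0.05, 8 were higher, where 1.47% of genes tested were, and none passed after adjustment. The median ratio was 1.97 in EC, 1.75 in HPSC and 0.77 in MC. Col4a1 and Col4a2 encode the chains of the main type IV collagen and share a bidirectional promoter region. Col4a1 was counted at 118 and 921 CPM in EC, 29.7 and 651 CPM in HPSC, and 70.5 and 354 CPM in MC. Col4a2 was counted at 50.02 and 329.7 CPM in EC, 14.2 and 325 CPM in HPSC, and 39.8 and 248 CPM in MC. In both genes the lowest positive library lay above the highest negative one. Such a gap with positive libraries higher was found in 3.43% of genes tested. Hspg2, which encodes perlecan, was counted at 34.8 and 236 CPM in EC, 5.62 and 166 CPM in HPSC, and 14.2 and 44.5 CPM in MC. Sparc, a collagen-binding matrix protein, was counted at 679.9 and 3655 CPM in EC, 678 and 2145 CPM in HPSC, and 1913 and 3585 CPM in MC. The laminin chain gene Lama4 differed in the CD31+ gates, at 32 and 633 CPM in EC and 1.55 and 803 CPM in HPSC, and stood at 53.8 and 62.5 CPM in MC.

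Among the genes at least 2-fold higher in all 3 pairs, which made up 0.659% of those tested, were several that no endothelial or matrix list held. Itga2, a collagen-binding integrin subunit, was counted at 3.83 and 47 CPM in EC, 0.0969 and 67.3 CPM in HPSC, and 1.05 and 34.2 CPM in MC. Rassf9 was counted at 0.438 and 40.9 CPM in EC, 0 and 53.4 CPM in HPSC, and 4.56 and 42.1 CPM in MC, so that the 3 positive libraries held similar levels. Myct1, a gene of endothelium and blood, was counted at 30.9 and 269.6 CPM in EC, 16.6 and 241 CPM in HPSC, and 1.48 and 24.6 CPM in MC. None of the 3 passed the test, with edgeR adjusted p of 0.162 for Myct1, 0.654 for Itga2 and 0.832 for Rassf9.

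Within single gates, at least 4-fold higher were 2.50% of genes tested in EC, 3.63% in HPSC and 2.35% in MC, and at least 4-fold lower were 2.17%, 4.13% and 5.69%. The EC and HPSC pairs also shared genes that were low in both MC libraries. At least 4-fold higher in both were 202 genes, 1.24% of those tested, and at least 4-fold lower in both were 108, or 0.665%. Fam70a, a membrane protein gene, had the largest ratio named in both, at 19.6 and 799.7 CPM in EC and 0.291 and 765 CPM in HPSC. Prnd, which encodes the prion-like protein Doppel, stood at 14 and 535 CPM and 0.291 and 538 CPM. Pde2a, a cyclic nucleotide phosphodiesterase, stood at 15.3 and 561 CPM and 10.2 and 673 CPM. The adhesion receptor Gpr116 stood at 26.3 and 681 CPM and 0.387 and 685 CPM, and Klhl4 at 39.9 and 1019 CPM and 13.3 and 1084 CPM. With 1 library per fraction these ratios carry no test within a gate.

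**Figure D3:**
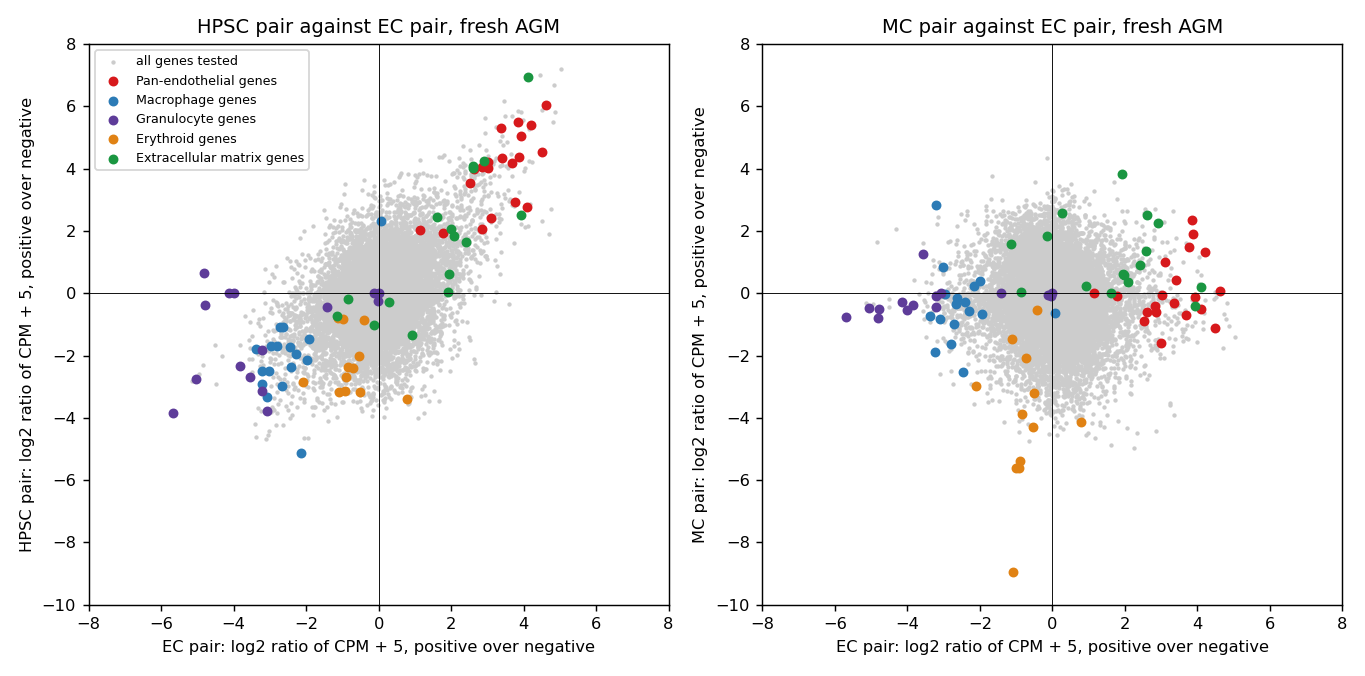
Log2 ratio of CPM + 5, positive over negative, in the EC pair (horizontal) against the HPSC pair (left panel, vertical) and the MC pair (right panel, vertical) for all genes tested (grey) and the members of 5 lists (colours). Pan-endothelial genes lie at the upper right and macrophage genes mostly at the lower left in the left panel, and erythroid genes reach the lowest MC ratios in the right panel.

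Across all genes tested, the ratios of the EC and HPSC pairs had a Spearman coefficient of 0.303, those of EC and MC -0.12, and those of HPSC and MC 0.03; these describe single pairs of libraries, and genes are not independent replicates. Leaving out the MC pair, whose positive library was the shallowest, raised the number of genes that passed from 3 to 24 of the 16146 tested in that fit. Of these, 17 were higher and 7 lower. Tie1, Cd93 and Lyz2 remained among them. The higher ones included Cdh5 (log2 fold change 4.78, edgeR adjusted p = 0.036), Emcn (5.04, adjusted p = 0.036), Pde2a (5.60, adjusted p = 0.0067) and the gap junction gene Gja4 (4.17, adjusted p = 0.0474). The lower ones were Lyz2, the platelet chemokine Pf4, the phosphatase Ptpn6, the complement receptor C5ar1, the protease Ctss, Alox5ap and the germ cell gene Dazl. Ctss had a log2 fold change of -2.84 (edgeR adjusted p = 0.0443) and Pf4 of -3.21 (adjusted p = 0.038) in that fit. Some of these genes had the opposite order in MC: Pde2a at 5.36 and 0.799 CPM, Gja4 at 4.87 and 0.999, Ctss at 25.6 and 49.5, and Pf4 at 7.4 and 30.2. Others, such as Emcn and Col4a1, had the same order there. With the MC pair left out, its disagreement no longer adds to the spread, so depth is not the only difference between the fits.

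Macrophage genes were lower in positive cells of the CD31+ gates. Of 17, 16 were lower in the EC pair, 16 in the HPSC pair and 13 in the MC pair. In all 3 pairs 12 were lower, where 16.2% of genes tested were, and 12 were lower at an unadjusted p under 0.05, where 4.31% were; Lyz2 alone passed after adjustment. The summed level was 6.59-fold lower in positive EC and 4.06-fold lower in positive HPSC cells, and stood at 252 and 248 CPM in MC. Csf1r, the receptor for macrophage colony-stimulating factor, was counted at 1189.8 and 296 CPM in EC, 476 and 104 CPM in HPSC, and 30.1 and 41.3 CPM in MC. Cx3cr1, the fractalkine receptor of embryonic macrophages, was counted at 852 and 151 CPM in EC, 263 and 76.2 CPM in HPSC, and 27.5 and 0.599 CPM in MC. The lysosomal protein gene Cd68 was counted at 536 and 72.7 CPM in EC, 238 and 70.7 CPM in HPSC, and 12.8 and 0.799 CPM in MC. Tyrobp, an adaptor of activating myeloid receptors, was counted at 1038 and 94.8 CPM in EC, 376 and 106 CPM in HPSC, and 12.1 and 5.19 CPM in MC. Aif1 went the other way in MC, with 4.19 and 60.3 CPM.

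Some genes outside the macrophage list were named for falls among the largest in these pairs, so that their low values follow from the choice. Fcrls, a macrophage and microglia gene, was counted at 1668 and 189.6 CPM in EC, 447 and 12.8 CPM in HPSC, and 27.7 and 0.399 CPM in MC. P2ry12, a purine receptor of microglia and platelets, was counted at 253 and 26.6 CPM in EC, 102 and 0 CPM in HPSC, and 1.85 and 0 CPM in MC. Both were at least 4-fold lower in the EC and HPSC pairs. The lysosomal sulfatase Arsb was counted at 119 and 13 CPM in EC, 49.9 and 3.47 CPM in HPSC, and 24.5 and 0.2 CPM in MC, and Gas7 had the same direction in each pair, at 697 and 161 CPM in EC, 246 and 55.8 CPM in HPSC, and 49.5 and 4.39 CPM in MC. At least 2-fold lower in all 3 pairs, as both were, were 0.752% of genes tested. Neither Fcrls (edgeR adjusted p = 0.148) nor Gas7 (adjusted p = 0.317) passed.

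Granulocyte genes gave the lowest ratios named in the EC pair. S100a8 and S100a9, whose products form calprotectin, were at 705 and 8.8 CPM and 360.3 and 6.04 CPM there, and at 68.8 and 0.12 CPM and 29.8 and 0.12 CPM in HPSC. The secondary granule genes Camp, Ngp, Ltf and Lcn2 were at 216, 359, 80.005 and 91.1 CPM in negative EC cells and at no more than 7.99 CPM in any other CD31+ library. The primary granule genes were instead high in both negative CD31+ libraries: Mpo, myeloperoxidase, was counted at 1416 and 94.4 CPM in EC, 4109 and 809.7 CPM in HPSC, and 9.12 and 5.79 CPM in MC, and Elane, neutrophil elastase, at 67.6 and 2.77 CPM in EC and 92.2 and 6.1 CPM in HPSC. Of 15 granulocyte genes, 7 were lower in all 3 pairs and 10 at an unadjusted p under 0.05, beside 16.2% and 4.31% of genes tested. None passed after adjustment in fresh tissue. Of 11 mast cell and eosinophil genes, 6 were lower in all 3 pairs and 2 at an unadjusted p under 0.05, beside the same shares of genes tested. None of them passed after adjustment. Prg2, the eosinophil major basic protein, was counted at 1658 and 112 CPM in EC and 492 and 153 CPM in HPSC.

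Of 12 megakaryocyte genes, 11 were lower in the EC pair, 7 in the HPSC pair and 10 in the MC pair. Pf4 was counted at 2276 and 419 CPM in EC, 200.04 and 12.8 CPM in HPSC, and 7.4 and 30.2 CPM in MC, and Ppbp, another platelet chemokine, at 619.6 and 248 CPM in EC and 17.2 and 0.12 CPM in HPSC. Vwf, which endothelium also makes, was higher in positive cells, at 128 and 761 CPM and 18.5 and 266 CPM. In all 3 pairs 5 were lower, beside 16.2% of genes tested, and none higher. An unadjusted p under 0.05 was found for 1, which was lower, as 4.31% of genes tested were, and none passed after adjustment.

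Erythroid genes were lower in all 3 gates, by the most in MC. The embryonic beta-like globin Hbb-y was counted at 2089.9 and 1102 CPM in EC, 9729 and 1103 CPM in HPSC, and 16892 and 338 CPM in MC. The embryonic alpha-like globin Hba-x was counted at 799 and 429 CPM in EC, 3486 and 535 CPM in HPSC, and 6644 and 155 CPM in MC. The embryonic globin Hbb-bh1 was counted at 486 and 224 CPM in EC, 1788 and 195 CPM in HPSC, and 3562 and 2.2 CPM in MC. The transcription factor Gata1 was counted at 62.5 and 36.1 CPM in EC, 125 and 19.6 CPM in HPSC, and 18.7 and 0.599 CPM in MC. The heme synthesis enzyme gene Alas2 was counted at 24 and 9.56 CPM in EC, 114 and 61.9 CPM in HPSC, and 248 and 0.2 CPM in MC. Epb4.2, a protein of the red cell membrane skeleton, was counted at 22.9 and 1.51 CPM in EC, 31.1 and 0 CPM in HPSC, and 34.6 and 0 CPM in MC, and the spectrin gene Spna1 was listed at 0 in each positive library and at 20.03, 13.4 and 19.2 CPM in the negative ones. For both, every negative library lay above every positive one, as it did for 5.74% of genes tested. Of 12 erythroid genes tested, 11 were lower in all 3 pairs and 10 at an unadjusted p under 0.05, beside 16.2% and 4.31% of all genes tested. None of the 12 passed after adjustment, with edgeR adjusted p of 0.155 for Hbb-y. Slc4a1 was the exception in the EC pair, with 5.25 and 12.7 CPM. Globin genes with near-identical copies are undercounted in these tables, and Hba-a1 was listed at 0 in every fresh library.

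More hematopoietic progenitor genes were lower than higher in positive cells. Of 20 surface genes, 14 were lower in EC, 15 in HPSC and 14 in MC. In all 3 pairs 1 was higher and 8 were lower, beside 8.78% and 16.2% of genes tested. At an unadjusted p under 0.05, 1 was higher and 3 were lower, beside 1.47% and 4.31%. Cd34, found on both endothelium and progenitors, was counted at 157 and 1251 CPM in EC, 348 and 804 CPM in HPSC, and 23.1 and 38.9 CPM in MC. Procr, the endothelial protein C receptor of stem cells and endothelium, was counted at 4.92 and 62.9 CPM in EC, 3.49 and 90.5 CPM in HPSC, and 5.36 and 4.39 CPM in MC. The pan-leukocyte gene Ptprc (CD45) was counted at 413 and 72.1 CPM in EC, 369.6 and 87.2 CPM in HPSC, and 11.5 and 0.599 CPM in MC, lower in each positive library, with a log2 fold change of -2.77 (SE 0.55; edgeR adjusted p = 0.131). Spn (CD43), a sialomucin of committed blood cells, was counted at 25 and 0.314 CPM in EC, 64 and 0.12 CPM in HPSC, and 0.185 and 0 CPM in MC. Csf2rb, a shared cytokine receptor subunit, was counted at 186 and 11.3 CPM in EC, 84.3 and 21.4 CPM in HPSC, and 4.56 and 0.399 CPM in MC. Kit differed little within the HPSC pair, at 646 and 690.1 CPM, and was higher in positive than in negative EC cells.

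Of 20 hematopoietic transcription factors, 2 were higher and 6 lower in all 3 pairs, beside 8.78% and 16.2% of genes tested. At an unadjusted p under 0.05, 1, Ikzf1, was lower, where 4.31% of genes tested were. Runx1, which endothelial-to-hematopoietic transition requires, was counted at 96.3 and 11.9 CPM in EC, 50.6 and 34.3 CPM in HPSC, and 9.25 and 1.6 CPM in MC. Ikzf1, a lymphoid and myeloid regulator, was counted at 133 and 24.2 CPM in EC, 271 and 144 CPM in HPSC, and 7.52 and 0 CPM in MC. Myb, which definitive progenitors require, was counted at 36.4 and 3.27 CPM in EC, 135 and 49.2 CPM in HPSC, and 2.34 and 3.99 CPM in MC. Factors of both endothelium and stem cells had the other order in the CD31+ gates: Mecom was counted at 6.79 and 151 CPM in EC and 14.2 and 53.5 CPM in HPSC, and Erg at 0.109 and 31 CPM and 6.49 and 23.5 CPM. Hlf, a marker of stem cells, was counted at 0.219 and 1.95 CPM in EC, 13.5 and 49.9 CPM in HPSC, and 4.19 and 12.6 CPM in MC. None passed after adjustment, and Gata2 stood at 24.2 and 35.2 CPM in EC and 78.4 and 60.4 CPM in HPSC.

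Most genes of primordial germ cells, which migrate through this region and express Kit, had higher values in the negative CD31+ libraries. Whether such cells were sorted there was not tested. Dppa3 was counted at 51.4 and 1.82 CPM in EC and 113 and 0 CPM in HPSC, the pluripotency factor Pou5f1 at 9.63 and 0 CPM and 31.7 and 0 CPM, Dazl at 9.85 and 0 CPM and 52.5 and 0 CPM, and the RNA helicase Ddx4 at 10.1 and 1.57 CPM and 54.2 and 0 CPM. Pou5f1 was listed at 0 in every positive library. Of 13 germ cell genes, 9 were lower in all 3 pairs and 7 at an unadjusted p under 0.05, beside 16.2% and 4.31% of genes tested. None of the 13 passed after adjustment. Prdm1, which endothelium and blood cells also express, was counted at 32.8 and 116 CPM in HPSC.

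The reporter itself is built to follow BMP target genes. Of 19 tested, 8 were higher in all 3 pairs, beside 8.78% of genes tested, and 1 was lower, beside 16.2%. Id3 and Stmn2 were the 2 with an unadjusted p under 0.05, both higher, where 1.47% of genes tested were, and none passed after adjustment. Stmn2 and Gata3, both among the 8, are also members of the sympathetic neural crest list. Gata3 had a ratio of only 0.0022 in HPSC. Msx1, another of the 8, reached at most 4.19 CPM in any fresh library, and Nog, the 1 lower gene, at most 1.42 CPM. The list's median ratio was 0.28 in EC, 0.13 in HPSC and 0.16 in MC. Its median over the mean of the 3 pairs was 0.062, against -0.0804 for all genes tested, and over the cultured pairs 0.246. Id1 was counted at 19.5 and 24.7 CPM in EC, 17.4 and 2.15 CPM in HPSC, and 64.9 and 73.1 CPM in MC, so that it was lower in positive HPSC cells. Id2 was counted at 404 and 332 CPM in EC, 444 and 215 CPM in HPSC, and 1017 and 1037 CPM in MC. Id3 was counted at 151 and 452 CPM in EC, 156 and 299 CPM in HPSC, and 823 and 1020.1 CPM in MC, higher in each positive library, with a log2 fold change of 0.94 (SE 0.36; edgeR adjusted p = 0.795). MC libraries of both fractions held more of each of these 3 genes than any CD31+ library. The transcript of the GFP reporter was not analysed here.

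Of the feedback inhibitors of the pathway, Smad6 was low in every fresh library. It was counted at 2.52 and 10.6 CPM in EC, 5.91 and 1.91 CPM in HPSC, and 3.58 and 2.4 CPM in MC, and its log2 fold change of -0.10 changed sign with the processing. Smad7 was counted at 10.8 and 22.4 CPM in EC, 3.68 and 8.26 CPM in HPSC, and 11.6 and 37 CPM in MC. Bambi, a decoy receptor, was counted at 17.4 and 29.4 CPM in EC, 5.81 and 31.5 CPM in HPSC, and 15.9 and 76.9 CPM in MC. Both were higher in each positive library and neither passed the test (edgeR adjusted p of 0.944 and 0.913). Among receptors, Acvrl1 and its co-receptor Eng, which serve BMP9 and BMP10 signalling in endothelium, had the order of the endothelial genes. Acvrl1 was counted at 22.5 and 139 CPM in EC, 16.1 and 51.2 CPM in HPSC, and 12.1 and 16.6 CPM in MC. Eng, which encodes endoglin, was counted at 10.7 and 129.7 CPM in EC, 13.6 and 94.8 CPM in HPSC, and 1.91 and 8.99 CPM in MC. Bmpr1a, the widely expressed type I receptor, was counted at 53.7 and 50.2 CPM in EC, 33.3 and 1.56 CPM in HPSC, and 127 and 63.1 CPM in MC, lower in positive HPSC cells. Bmpr2 was counted at 8.65 and 21.9 CPM in EC, 13.7 and 59.6 CPM in HPSC, and 13.2 and 9.39 CPM in MC. The signal transducer Smad1 was counted at 69.2 and 56 CPM in EC, 19.1 and 137 CPM in HPSC, and 30.03 and 53.7 CPM in MC. Smad5, which acts beside it, was counted at 88.1 and 237 CPM in EC, 125 and 227 CPM in HPSC, and 179.9 and 136 CPM in MC. Of 11 receptors and SMADs, 1, Eng, was higher at an unadjusted p under 0.05, as 1.47% of genes tested were.

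Of 7 ligand genes tested, Bmp4 alone was higher and 2 were lower in all 3 pairs, beside 8.78% and 16.2% of genes tested. Bmp4, the main BMP of the ventral aorta, was counted at 22.3 and 45.3 CPM in EC, 7.17 and 37.9 CPM in HPSC, and 82.5 and 97.1 CPM in MC. Among 11 antagonists, none was higher and 3 were lower in all 3 pairs, beside the same shares of genes tested. Fst (follistatin) was counted at 12.1 and 4.47 CPM in EC, 18.2 and 0 CPM in HPSC, and 17.9 and 0.2 CPM in MC. It was the 1 antagonist at an unadjusted p under 0.05, where 4.31% of genes tested were lower. Bmper, an extracellular modulator of BMP, was counted at 4.82 and 4.91 CPM in EC, 4.46 and 0.598 CPM in HPSC, and 116 and 62.9 CPM in MC, almost wholly in MC.

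**Figure D4:**
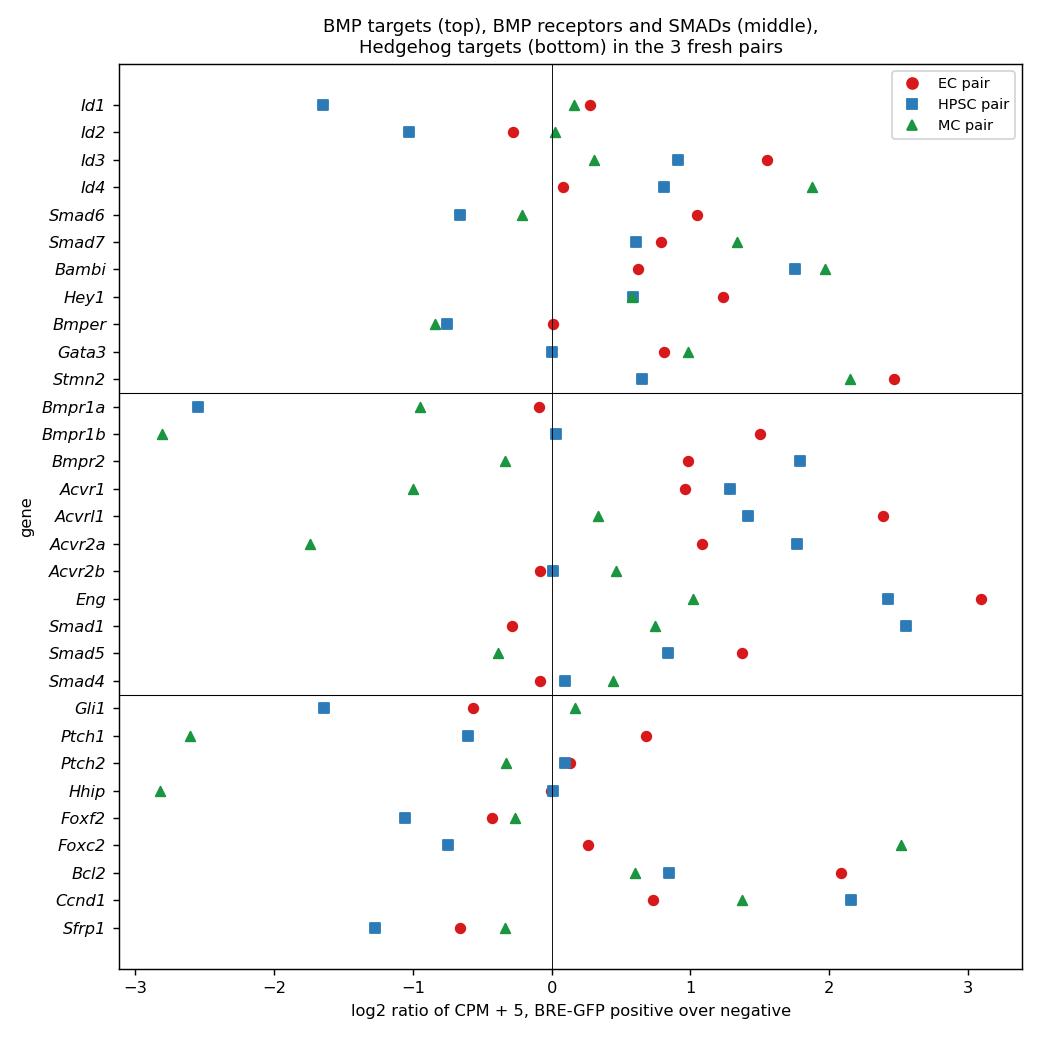
Log2 ratio of CPM + 5, positive over negative (horizontal), in the EC (circle), HPSC (square) and MC (triangle) pairs for BMP targets, BMP receptors and SMADs, and Hedgehog targets with at least 10 CPM in 1 fresh library (vertical). Id1 is on the negative side in HPSC and near 0 in the other pairs, Id3 and Eng are on the positive side in all 3, and the Hedgehog targets lie on both sides.

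Hedgehog target genes were on both sides. Of 10 tested, 2 were higher and 2 lower in all 3 pairs, beside 8.78% and 16.2% of genes tested. None had an unadjusted p under 0.05 in the edgeR fit. Gli1, the most direct readout of the pathway, was counted at 3.06 and 0.44 CPM in EC, 12.8 and 0.718 CPM in HPSC, and 36 and 41.1 CPM in MC. Ptch1, the Hedgehog receptor and a feedback target, was counted at 8.87 and 17.2 CPM in EC, 26.4 and 15.7 CPM in HPSC, and 50.9 and 4.19 CPM in MC. Gli1 was most abundant in both MC libraries, whereas Ptch1 was highest in the negative and lowest in the positive MC library. Hhip, a Hedgehog-binding inhibitor, was listed at 0 in positive MC cells and at 30.4 CPM in negative ones.

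Most imprinted genes of fetal growth had higher values in positive cells. Of 12, 9 were higher in all 3 pairs and none lower, beside 8.78% and 16.2% of genes tested. At an unadjusted p under 0.05, 6 were higher, where 1.47% of genes tested were, and none passed after adjustment. Igf2, insulin-like growth factor 2, was counted at 380.2 and 1190 CPM in EC, 244 and 806 CPM in HPSC, and 792 and 2028 CPM in MC. The noncoding RNA H19, its neighbour, was counted at 561 and 1867 CPM in EC, 394 and 1469 CPM in HPSC, and 1256 and 2391 CPM in MC. Mest was counted at 604 and 2473 CPM in EC, 329.9 and 2362 CPM in HPSC, and 993 and 1466 CPM in MC. Plagl1, a zinc finger regulator of this gene network, was counted at 81.1 and 574 CPM in EC, 72.5 and 474 CPM in HPSC, and 158 and 420.04 CPM in MC, and its lowest positive library was above its highest negative one. The Igf2 receptor Igf2r, which clears the ligand, was higher as well, at 116 and 428 CPM in EC, 152 and 434 CPM in HPSC, and 265 and 379 CPM in MC. The other 3, Dlk1, Nnat and Peg3, were lower in positive HPSC cells, at 14.3 and 7.3, 66.1 and 21.3, and 147 and 39 CPM. Peg3 was also lower in positive MC cells, at 593 and 319 CPM.

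Within the MC pair, most smooth muscle and sympathetic genes had higher values in the positive library, and mesenchymal genes were divided, with 10 of 18 higher and 8 lower. Col1a1, type I collagen, was counted at 131 and 139 CPM in EC, 67 and 59.2 CPM in HPSC, and 162 and 1400.1 CPM in MC. The smooth muscle actin gene Acta2 was counted at 81 and 112 CPM in EC, 235 and 70.2 CPM in HPSC, and 556 and 2081 CPM in MC. The elastic fibre gene Eln reached 223 CPM from 11.2 CPM. Of 11 smooth muscle genes, 10 were higher in the positive MC library, against 6 in EC and 2 in HPSC. Of 14 sympathetic neural crest genes, 13 were higher there: Th and Dbh, enzymes of catecholamine synthesis, stood at 7.4 and 91.9 CPM and 33.7 and 208 CPM. Resp18, Ptprn and Cartpt, neuroendocrine genes outside the list, were named, like Eln, because their ratios were among the 8 largest in this pair. They were at 0.925 and 114 CPM, 0.185 and 65.5 CPM and 0.247 and 54.3 CPM. Pdgfra, a receptor of mesenchyme, went the other way at 459 and 178 CPM. Each of these values rests on the shallow positive MC library, and without that pair the log2 fold change of Col1a1 over the remaining fresh pairs was -0.06 and that of Acta2 -0.65.

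The direction of the fresh effect was then set beside that in culture, where S100a9 and the stefin gene Stfa1 fell and no gene rose; these 2 genes were 0.0123% of those tested, and 772 genes, 4.76%, had an unadjusted p under 0.05 (edgeR). DESeq2 called 440 genes in culture, 385 higher and 55 lower, so that the balance of directions turned with the tool, and limma-voom called 10, 3 higher and 7 lower. The fresh and cultured effects share no library. Tie1 had a cultured log2 fold change of 1.19, Cd93 of 1.16 and Lyz2 of -0.46, each of the same sign as in fresh tissue and none passing in culture (edgeR adjusted p of 0.93 for each). The difference between fresh and cultured effects was tested directly, and no gene passed at an edgeR adjusted p under 0.05; 825 had an unadjusted p under 0.05, 5.08% of those tested, and limma-voom called 0 and DESeq2 339. Lyz2 came nearest, with a difference of -3.01 (edgeR adjusted p = 0.213).

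Within the pairs, Tie1 ratios were 1.72, 2.75 and 0.18 in the EC, HPSC and MC explants and 0.58, 1.0 and 0.0085 with cyclopamine, against 3.87 in EC, 4.38 in HPSC and 1.89 in MC in fresh tissue. Cd68 had a fresh log2 fold change of -2.75 and a cultured one of 0.37, and Hbb-y of -3.21 and 0.13, but the differences did not pass (edgeR adjusted p of 0.902 for both). Over all genes tested the median fitted log2 fold change was -0.292 in fresh tissue and 0.397 in culture, and the median difference was -0.71. The cultured values of Cd68 and Hbb-y thus lay below the median of all genes, so their change of sign is no reversal beyond that general shift. Akap9, a scaffold protein of the centrosome and Golgi, was counted at 56 and 159.7 CPM in EC, 106 and 231 CPM in HPSC, and 142 and 359 CPM in MC and had a cultured log2 fold change of -0.35. The granulocyte genes were also low in cultured positive cells: S100a8 had log2 fold changes of -6.42 in fresh and -5.84 in cultured cells, and S100a9 of -6.03 and -5.84, with edgeR adjusted p of 1 for both differences. Median list ratios in fresh and cultured pairs were 2.37 and 1.12 for pan-endothelial, 1.48 and 0.68 for matrix, 1.01 and 0.58 for imprinted, -1.61 and -0.082 for macrophage, -1.66 and -1.93 for granulocyte and -2.32 and -0.26 for erythroid genes.

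**Figure D5:**
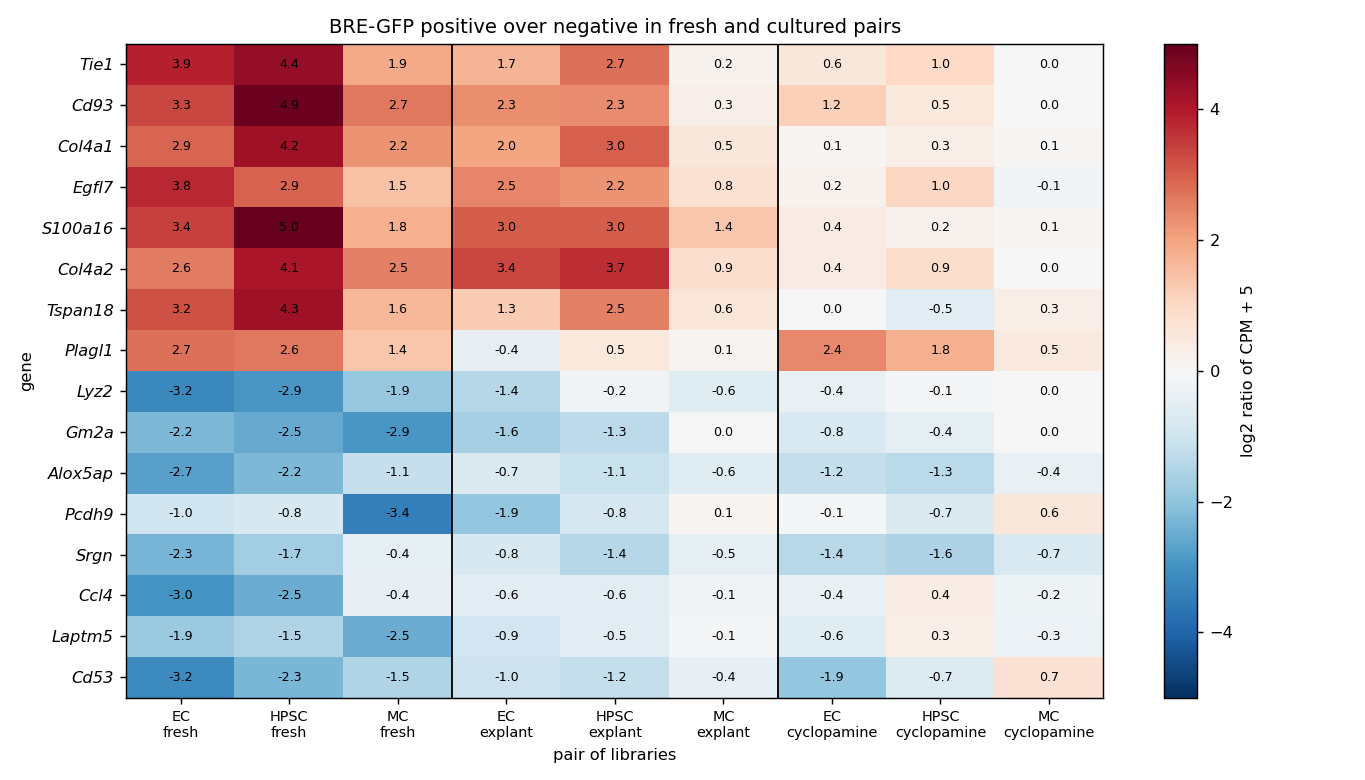
Log2 ratio of CPM + 5, positive over negative (colour and printed value), of 16 genes (vertical) in the 3 fresh, 3 explant and 3 cyclopamine pairs (horizontal). The genes are those of lowest p in each direction in fresh tissue, among genes with the same sign in every fresh pair and a high enough mean CPM. The fresh pairs, which chose the genes, hold the most extreme colours, and the cyclopamine pairs are nearer 0 for most genes, with the values furthest from 0 there in EC, at 2.40 for Plagl1 and -1.94 for Cd53.

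How many genes passed depended on the tool: DESeq2 called 616 genes in fresh tissue, 149 higher and 467 lower, and limma-voom 61, 23 higher and 38 lower, where edgeR called 3, and a fit to the 6 fresh libraries alone called 0, with 637 at an unadjusted p under 0.05. With 3 pairs, a 2-sided exact sign permutation test of a single gene cannot give a p below 0.25. The macrophage, granulocyte, erythroid and germ cell sums differed between fractions alongside every endothelial difference in the CD31+ gates, and their part in those differences was not tested.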

How the data were processed

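The deposited tables hold raw counts of reads per gene symbol, 1 table per library, made by the authors with TopHat, Cufflinks and HTSeq on mm10, per the submitters' processing notes. Versions, the annotation and whether strand was used: not given in the sources used here. Reads of overlapping or antisense genes may therefore be mixed, and near-identical copies are undercounted. RNA was prepared with a mirVana kit and a SMARTer protocol, per the labels' protocols. Lines that name no gene, 21.7 to 42.0% of uniquely placed reads for no feature in fresh libraries, stayed out of library sizes and tests.

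Counts were fitted with edgeR 4.0.16 (R 4.3.3; TMM, quasi-likelihood F test, Benjamini-Hochberg adjustment over 16231 of 21881 symbols with at least 0.796 CPM in at least 3 libraries) on all 18 libraries, with 9 pair blocks, 1 BRE-GFP effect per culture condition and 6 residual degrees of freedom; the common biological coefficient of variation was 0.875. The pairing comes from the labels (same gate and culture). Pair ratios are log2 of CPM + 5, and a list's ratio is the median over its tested genes. DESeq2 1.42.0 and limma-voom (limma 3.58.1), other scalings, filters, pseudocounts and left-out pairs were alternatives.

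The comparison, the 37 gene lists and the naming rule were chosen with earlier results of these data known. Named were up to 12 genes each way that passed (filled to 8 by lowest p), up to 8 each way by ratio within a pair, up to 10 each way at least 2-fold in all 3 pairs, up to 6 each way by p of the difference from culture, and list members. The first of these rules took only genes with the same sign in all 3 fresh pairs and a mean of at least 10 CPM in 1 fraction. Predicted genes were skipped. Not every gene so named is described. Lists not described above had 0 genes passing. In data simulated for the fresh effect over 15676 genes, the edgeR test found 24 of 50 genes changed by a log2 fold of 4, 12 of 50 at 3, 5 of 50 at 2 and 0 of 50 at 1, with 3 false calls. The changed genes had a mean above 50 counts and were changed by the same fold in all 3 gates. Genes with fewer counts, or with effects that differ between gates, were not among those changed, so these rates do not extend to them.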

Additional observations from a re-analysis of the deposited data

Results flagged for a closer look

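Interferon response genes were the 1 list whose median ratio pointed one way in all 3 fresh pairs and the other way in all 6 cultured pairs. The median over 16 genes was -0.44 in fresh and 0.327 in cultured pairs (log2 ratio of CPM + 5). By pair it was -0.73 in EC, -0.34 in HPSC and -0.24 in MC in fresh tissue, and it ran from 0.0085 in the MC pair with cyclopamine to 1.62 in the HPSC pair with cyclopamine. The median of all genes tested was 0 in the fresh EC and HPSC pairs and -0.146 in MC. In culture it was above 0 in every pair, from 0.00334 in MC with cyclopamine to 0.13 in the EC explant. In EC with cyclopamine the list stood at 0.031, below the 0.0641 of all genes tested. Oas1a, an interferon-induced synthetase, was counted at 21.5 and 1.01 CPM in negative and positive fresh EC cells and at 11.8 and 0 CPM in HPSC. Rsad2, which encodes the antiviral protein viperin, had the opposite order, at 17.9 and 90.8 CPM in EC and 0.194 and 70.4 CPM in HPSC. The difference of the list between fresh and cultured pairs was not tested.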

How the results depend on the processing

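The test found 3 genes in fresh tissue, 2 in culture and 0 for their difference. In that order, scaling with DESeq2's size factors gave 6, 5 and 0, no filter 92, 20 and 8, a filter at 50 counts 1, 0 and 0, no replicate block 0, 0 and 0, the no-feature share as a covariate 0, 0 and 0, DESeq2 616, 440 and 339, and limma-voom 61, 10 and 0; the 6 fresh libraries alone gave 0 for the fresh effect. The pairs, which share a gate and culture by their labels, thus changed the calls of Tie1, Cd93 and Lyz2 when left out of the model as blocks. With each pair left out in turn, the counts ran from 0 (without the fresh HPSC pair) to 24 (without the fresh MC pair) in fresh tissue and from 0 to 17 in culture. Genes at least 4-fold apart numbered 759 in EC, 1259 in HPSC and 1304 in MC with CPM + 5, 1773, 3183 and 3368 with CPM + 1, and 282, 275 and 184 with CPM + 20; genes at least 2-fold in all 3 pairs numbered 229, 633 and 66.

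The fresh log2 fold change changed sign for 7 of the genes described, none of which passed, and the cause was not tested. Gja5 was at -0.01728 with no filter and -0.04807 in DESeq2, and Smad6 at 0.3135 with no replicate block, 0.5666 with the covariate and 0.08419 in limma-voom. With pairs left out, the range was -1.617 to 1.623 for Gja5, -1.099 to 0.7601 for Smad6, -1.384 to 0.2621 for Id1, -2.16 to 0.08523 for Ptch1, -0.1714 to 1.213 for Kit, -0.06144 to 1.603 for Col1a1 and -0.6486 to 1.195 for Acta2. Of the gene tests under all alternatives, 1563 kept their direction and side of the threshold, 143 newly passed, 22 no longer passed and 16 changed sign. Of the list medians, 174 moved by less than the spread between pairs and 11 by more. The ratios named within single pairs were less stable: 109 moved by less than their counting error and 83 by more. Of the numbers of genes passing a threshold, 28 kept a similar size and 40 did not. The positive MC library, at 4547062 counts the shallowest, limits every MC ratio, and 0 counts there do not show absence.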

Other observations

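Of 14 cartilage and myotome genes, 3 were lower and 1 was higher in all 3 fresh pairs, beside 16.2% and 8.78% of genes tested. In edgeR 2, both lower, had an unadjusted p under 0.05, where 4.31% of genes tested were lower. None passed after adjustment. Col2a1, type II collagen, was counted at 58.6 and 12.4 CPM in the negative and positive EC library, 15.1 and 2.63 CPM in HPSC and 248 and 57.3 CPM in MC (log2 fold change -2.28, edgeR adjusted p = 0.493), and in culture its log2 fold change was 0.99. Sox9, a regulator of Col2a1, was counted at 78.5 and 25.7 CPM in EC, 35.6 and 14.0 CPM in HPSC and 221 and 159 CPM in MC.

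The retinoic acid-degrading enzyme gene Cyp26b1 was counted at 22.3 and 124 CPM in EC and 3.58 and 79.0 CPM in HPSC, and at 14.3 and 0 CPM in MC. Pea15a, a regulator of ERK location, was higher in each positive library, at 170 and 525 CPM in EC, 73.2 and 280 CPM in HPSC and 109 and 279 CPM in MC (edgeR adjusted p = 0.327). Of 20 cell cycle genes, none was higher and 7 were lower in all 3 pairs, beside 8.78% and 16.2% of genes tested. None had an unadjusted p under 0.05 in edgeR.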
